A study of Mus musculus with 2 samples.

Results

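Cluster 12 of the retinal bipolar cells (BCs) held 557 of the 5743 cells that the deposited per-cell annotation calls BC, of 30943 cells in all. Its members were the cells with the cell type label BC and the cluster number 12 in that annotation, and BCs were spread over 10 such clusters. The cells came from whole retina of 30-day-old mice, dissociated with papain and profiled by droplet single-cell RNA-seq, which counts each captured RNA molecule once as a unique molecular identifier (UMI) near its 3′ end. There was 1 library per genotype: Ptbp1-Ctrl, from a mouse with the Chx10-Cre transgene and intact Ptbp1, and Ptbp1-KO, from a mouse with Chx10-Cre and both Ptbp1 copies floxed (Chx10-Cre;Ptbp1lox/lox). Both libraries therefore carried Chx10-Cre, which drives recombination in retinal progenitors, the cells that give rise to all retinal neurons and to Müller glia. The floxed allele loses the promoter and the first exon of Ptbp1, which encodes a splicing regulator that holds back neuronal exons in progenitors and non-neuronal cells. With 1 library per genotype the differences have no replicate check, and no test was made between genotypes. Intervals given beside values are exact 95% intervals and cover counting error only.

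Bipolar cells carry signals from photoreceptors to amacrine and ganglion cells. ON types respond to light through the glutamate receptor mGluR6 (Grm6), whose G protein cascade gates the cation channel Trpm1, while OFF types use kainate and AMPA receptors. Rod bipolar cells (RBCs) serve rods, and the cone bipolar types, numbered by the depth at which their axons end in the inner plexiform layer, serve cones. The type 5 cells (BC5A to BC5D) are ON cone bipolar cells whose axons end near the middle of that layer, and they are told apart mainly by the genes they transcribe.

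The Ptbp1-Ctrl library held 16421 cells with a median of 1442 UMIs per cell, and the Ptbp1-KO library 14522 cells with a median of 1740. Cluster 12 was deeper than the libraries around it, with a median of 2903 UMIs in 294 Ptbp1-Ctrl cells and 4103 UMIs in 263 Ptbp1-KO cells, or 905049 and 1153498 UMIs in all. As a share of BCs it made up 9.20% (8.22 to 10.3) in Ptbp1-Ctrl and 10.3% (9.16 to 11.6) in Ptbp1-KO, intervals that overlapped. Levels below are counts per 1000000 UMIs of the cells named (CPM). Across the series 63 cell barcodes occurred in both libraries, of which 1 belonged to a cluster 12 cell, and none was shared by cluster 12 cells of both libraries. Rod markers were present, at a summed 6121 CPM (Ptbp1-Ctrl) and 5802 CPM (Ptbp1-KO) cells of cluster 12 against 6414 and 5466 CPM in the other BC clusters, and 46 of 294 and 50 of 263 cells had over 1% of their UMIs in rod markers. Among the marker lists of other cells, blood markers were at 0 for 4 of 4 members, 2 of 6 amacrine, 1 of 4 horizontal and 2 of 4 microglial markers were at 0, and the summed level of each of these lists was at most 42.0 CPM in either library. Cone markers summed to 146 and 162 CPM, against 1509 and 1311 CPM in the other BC clusters, and Müller glia markers to 211 and 251 CPM, against 214 and 205 CPM.

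The label BC held for cluster 12, and its subtype genes, summed over all its cells, placed it among the ON cone bipolar cells. Otx2, a transcription factor of photoreceptors and bipolar cells, was at 523 CPM over both libraries. Cabp5, a calcium-binding protein of several bipolar types, was at 1238 CPM (Ptbp1-Ctrl) and 1357 CPM (Ptbp1-KO), the highest of the 10 BC clusters, and the next, cluster 13, was at 684 CPM. The cone bipolar genes Scgn, for the calcium-binding protein secretagogin, and Lhx4, a LIM homeodomain factor, were at 322 and 424 CPM, the 6th and the 2nd highest level of the clusters. The plot of marker levels by cluster sets these genes side by side.

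**Figure D1:**
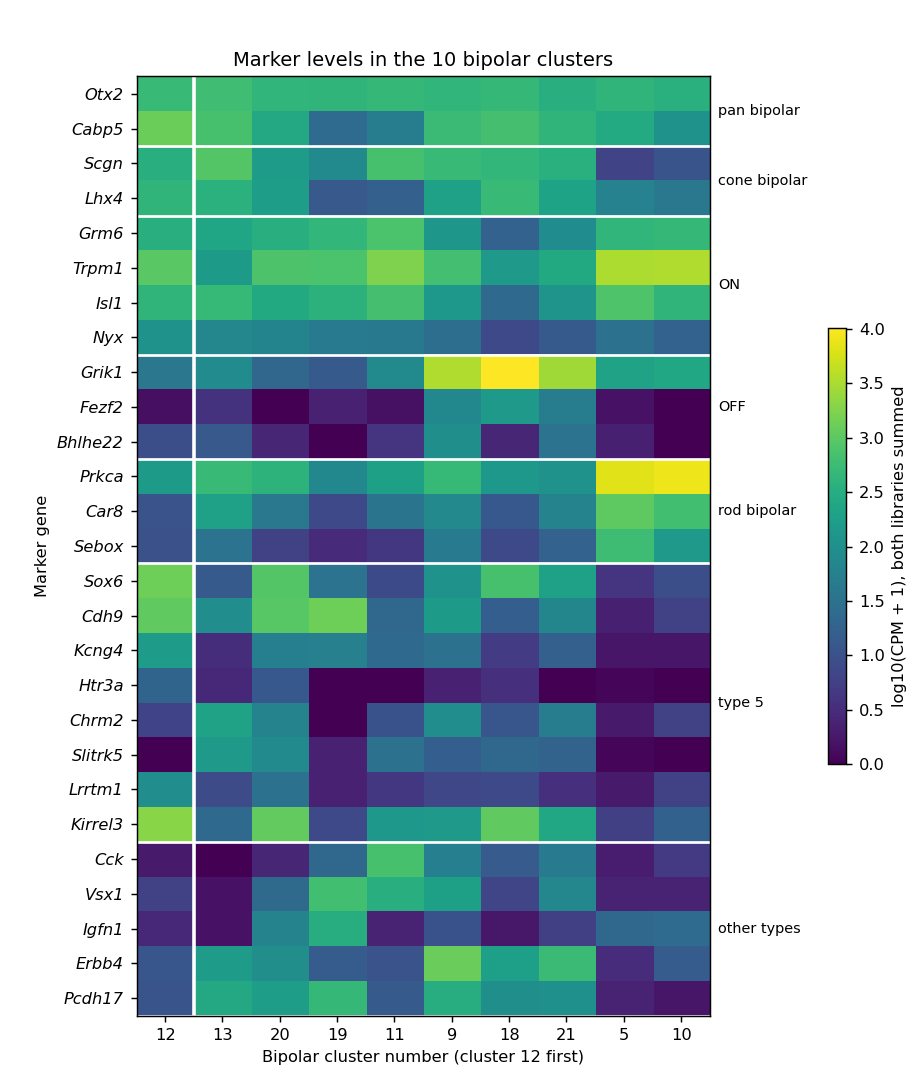
Levels of bipolar marker and subtype genes in the 10 BC clusters, as log10(CPM + 1) with both libraries summed and given by colour; rows are genes grouped by marker list and columns are clusters, cluster 12 first. Cluster 12 held ON genes and the type 5 genes Sox6, Cdh9, Kcng4, Lrrtm1 and Kirrel3, while Slitrk5 had no UMI and the OFF and RBC genes shown were low.

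The ON receptor cascade was present in cluster 12. Grm6 was at 319 CPM (284 to 358) in Ptbp1-Ctrl and 323 CPM (291 to 358) in Ptbp1-KO cells, Trpm1 at 931 and 978 CPM, and Isl1, the LIM homeodomain factor of ON bipolar cells, at 387 and 435 CPM. Nyx, for nyctalopin, which holds Trpm1 at the dendritic tips, was at 114 and 116 CPM, the highest level of the BC clusters, ahead of cluster 13 at 69.9 CPM. Of the 13 cascade genes listed, 12 reached the minimum of 50 CPM in cluster 12 or in the other BCs; Nyx was past 2-fold higher in cluster 12 in both libraries, and Pcp2, a modulator of Go signalling, and Rgs11, a G protein deactivator, were past 2-fold lower. Over all 4572 genes compared, 4.37% were past 2-fold higher in cluster 12 and 6.56% past 2-fold lower in both libraries. The α subunit of the cascade's G protein, Gnao1, was at 1224 CPM and the β subunit Gnb3 at 763 CPM over both libraries.

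Of the 7 OFF bipolar genes listed, Grik1 and Gria1 had at least 20 UMIs in cluster 12. Gria1, an AMPA receptor subunit, was at 112 and 185 CPM, beside 163 and 187 CPM in the other BCs. Grik1, the kainate receptor subunit of OFF cells, was at 38.4 CPM over both libraries against 10234 CPM in cluster 18, and in rods it was at 16.95 and 17.04 CPM in the libraries. Its UMIs lay in few cells, with 32 of the 61 Ptbp1-KO UMIs and 9 of the 18 Ptbp1-Ctrl UMIs in 1 cell each. Vsx1, a homeodomain factor of some cone bipolar types, was at 4.86 CPM, so of the 5 marker genes given for the cluster, Grm6, Trpm1 and Scgn were present and Vsx1 and Grik1 were near background. Prkca, the protein kinase C that marks RBCs, was at 152 CPM, below its level in rods of 834 and 903 CPM and far below the 8042 CPM of cluster 10. Of the 7 RBC genes listed, each was past 2-fold lower in cluster 12 than in the other BCs in both libraries.

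Genes of the type 5 cells led the subtype lists. Sox6, a SoxD transcription factor, was at 1284 CPM (1211 to 1360) in Ptbp1-Ctrl and 1410.5 CPM (1343 to 1481) in Ptbp1-KO, the highest of the BC clusters, and the next was cluster 20 at 869 CPM. In rods, which should lack Sox6, it was at 4.14 and 7.52 CPM. Cdh9, a cadherin that guides type 5 axons to their layer, was at 1093 and 1066 CPM, the 2nd highest level, after cluster 19 at 1344 CPM. Kcng4, a modifier subunit of voltage-gated potassium channels, was at 152.5 and 174 CPM and the serotonin receptor subunit Htr3a at 18.8 and 19.1 CPM, each the highest of the clusters. The BC5A list had a 5th member, Chrm2, a muscarinic acetylcholine receptor, which was at 5.34 CPM in cluster 12 and 201 CPM in cluster 13.

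From the lists of the other type 5 cells, Lrrtm1, a leucine-rich synaptic adhesion protein, was at 97.2 CPM (Ptbp1-Ctrl) and 85.8 CPM (Ptbp1-KO), and Kirrel3, an immunoglobulin-type adhesion protein, at 2326 and 1651 CPM, both the highest of the BC clusters. Slitrk5, another leucine-rich adhesion protein, had no UMI in cluster 12, whereas clusters 13 and 20 had 149 and 80.6 CPM. A floor of 3 counts in cluster 12 is 3.31 CPM (Ptbp1-Ctrl) and 2.60 CPM (Ptbp1-KO). Genes of other cone bipolar types were near 0, among them Syt2 at 1.46 CPM, Cck at 0.972 CPM, Irx6 at 0.972 CPM, Erbb4 at 10.7 CPM and Nxph1 without a UMI. Summed over its cells, cluster 12 is therefore described as type 5-like ON cone bipolar cells, with genes of more than 1 type 5 list. Sox6 and Kirrel3 lay in mostly separate cells, as given below. The cells with at least 5 Kirrel3 UMIs had a Grm6 UMI in 5 of 70 (Ptbp1-Ctrl) and 1 of 52 (Ptbp1-KO). The name thus describes the sum and not each population in it. A difference from other annotations may come from these rebuilt names.

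The genes highest in cluster 12 against the other BCs joined signalling, channel and transcription genes, and all 15 had their highest level of any BC cluster there. Kcnd2, the Kv4.2 potassium channel, was at 500.5 and 607 CPM in the Ptbp1-Ctrl and Ptbp1-KO cells of cluster 12 against 31.1 and 41.3 CPM in the other BCs. Ptprt, a receptor tyrosine phosphatase, was at 414 and 290.4 CPM against 18.7 and 13.9 CPM. Its relative Ptprk was 3.98 and 4.12 higher on the log2 scale in the respective libraries.

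Several transcription factors were also high in cluster 12, although the bipolar transcription factor list had members past 2-fold in both directions. Nfia, of the nuclear factor I family, was at 2675 and 2546 CPM in cluster 12 against 211 and 201 CPM, and its relative Nfix at 223 and 249.7 CPM against 19.1 and 23.0 CPM. Neurod2, a basic helix-loop-helix factor of neurons, was at 140 and 188 CPM against 7.32 and 11.1 CPM. Hpca, the calcium sensor hippocalcin, was at 135 and 183 CPM against 7.54 and 8.81 CPM. Meis2, a homeodomain factor, was at 1283 and 1127 CPM against 134 and 143 CPM. These genes were high in the cluster in both libraries, and as the clusters were made from the same cells, the differences describe how the cluster was drawn and were not tested.

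**Figure D2:**
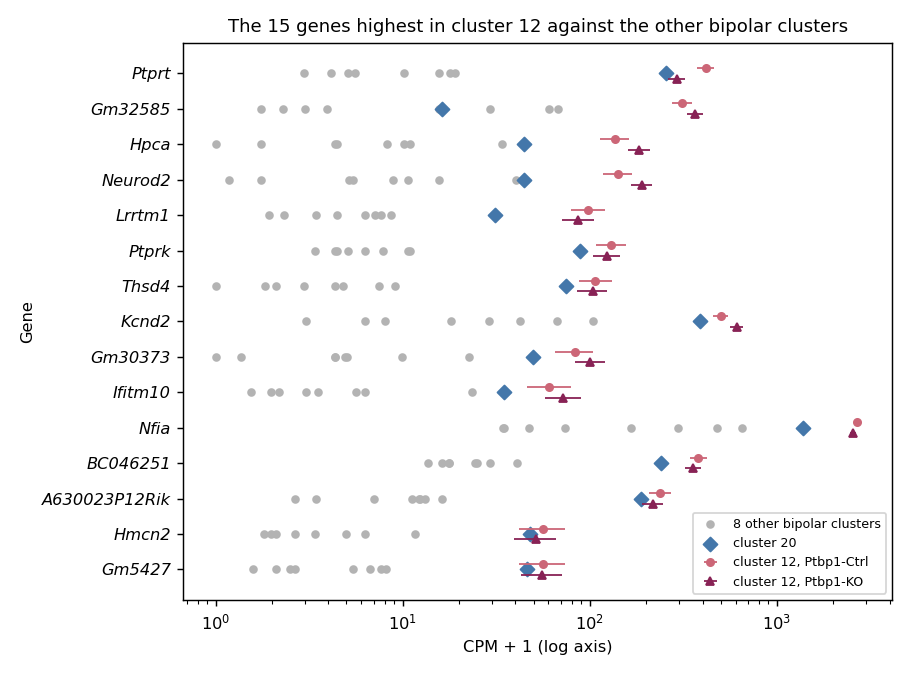
Levels, as CPM + 1 on a log axis, of the 15 genes with the highest ratio of cluster 12 over the pooled other BC clusters; circles and triangles are the Ptbp1-Ctrl and Ptbp1-KO cells of cluster 12 with exact 95% counting intervals, diamonds are cluster 20 and grey points are the other 8 BC clusters, libraries summed. Cluster 12 lies to the right for every gene, and cluster 20 is the next highest for 14 of them.

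Of the 15 leading genes, 14 had cluster 20 as the next highest BC cluster; the exception, the long noncoding RNA Gm32585, was at 310.5 and 365 CPM in cluster 12 and 66.7 CPM in the next, cluster 18. Over 4572 genes, log2(CPM + 10) of cluster 12 correlated best with cluster 20 in Ptbp1-Ctrl (Pearson r = 0.831) and with cluster 13 in Ptbp1-KO (r = 0.826), where cluster 20 gave 0.813. These are correlations across genes, which are not independent replicates, within libraries that the clusters share. The RBC-rich clusters 5 and 10 were least alike, with r between 0.546 and 0.589. Cluster 20 held 309 cells of a lower median depth, 1579 and 1891 UMIs.

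The genes lowest in cluster 12 included adhesion and guidance genes that other bipolar types carry. Lrrtm4, an adhesion protein of RBC synapses, was at 16.6 and 15.6 CPM against 3596 and 4198 CPM in the other BCs. Slit2, an axon guidance ligand, was at 3.31 and 5.202 CPM against 1209 and 1093 CPM, and Ntng1, the adhesion protein netrin-G1, at 7.73 and 4.34 CPM against 1089 and 1007 CPM. Nxph1, a secreted ligand of neurexins, had no UMI in cluster 12 and 302 and 304 CPM in the other BCs. Of the 10 lowest genes, 4 had no UMI in cluster 12.

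By role, the adhesion and transcription factor lists had members past 2-fold in both directions. Over all 4572 genes, 4.37% were past 2-fold higher and 6.56% past 2-fold lower. Of 18 adhesion genes that reached the minimum, 6 were past 2-fold higher (Cdh9, Cdh11, Lrrtm1, Kirrel3, Cntn5 and Pcdh7) and 5 past 2-fold lower, among them Slitrk6 and Cntn4. Of 17 bipolar transcription factors, 5 were past 2-fold higher (Sox6, Meis2, Nfia, Nfix and Lhx4) and 6 past 2-fold lower. None of the 16 genes of the ribbon synapse, the release site of bipolar axons, was past 2-fold in either direction. At the shares over all genes few of 16 would be, so this is not read as a trait of the list. Of 9 ion channel genes, 3 were past 2-fold higher, among them Kcnd2 and Kcng4, and Cacna2d1 and Cacna2d3, calcium channel accessory subunits, were lower.

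Among receptors for inhibitory input, the GABA-C subunit Gabrr2 was at 741 and 646 CPM in cluster 12 against 392 and 380 CPM in the other BCs, the 2nd highest level of the clusters, and 3 of 10 genes of this group (Gabrb1, Glra1 and Gabrr3) were past 2-fold lower. Gabrb1, a GABA-A subunit, was at 4.42 and 6.94 CPM against 141 and 131 CPM. Of 9 glutamate receptor genes, 4 were past 2-fold lower, and Grm7, a presynaptic metabotropic receptor, was at 36.5 and 32.9 CPM against 512 and 509 CPM. Grm7 was at 848 CPM in cluster 20 and 1341 CPM in cluster 13, the clusters most like cluster 12.

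Within cluster 12, Kirrel3 and Sox6 marked separate cells. No Kirrel3 UMI was found in 414 of the 557 cells, 1 to 4 UMIs in 21, 5 to 11 in 14 and 12 or more in 108. Cells with at least 5 Kirrel3 UMIs are called Kirrel3-high (122 cells) and the rest Kirrel3-low (435 cells), a split chosen after the values had been seen and made from Kirrel3 itself. The median Kirrel3 count was 28 UMIs in Ptbp1-Ctrl and 28.5 UMIs in Ptbp1-KO Kirrel3-high cells and 0 in Kirrel3-low cells. At least 3 Sox6 UMIs were present in 348 of the 435 Kirrel3-low cells and in 1 of the 122 Kirrel3-high cells. Neither gene had a UMI in 12 cells.

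**Figure D3:**
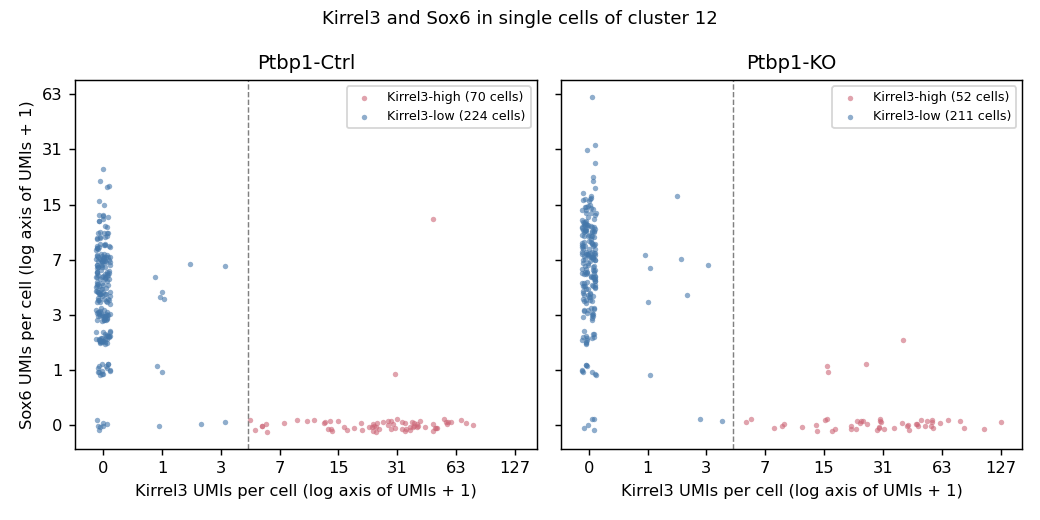
UMIs of Kirrel3 against UMIs of Sox6 in each of the 557 cells of cluster 12, on log axes of UMIs + 1 with a small random shift, with a panel for each library, colours for the Kirrel3-high and Kirrel3-low cells and a dashed line at the split. Cells lie along the axes, and 1 Kirrel3-high cell, from Ptbp1-Ctrl, has 3 or more Sox6 UMIs.

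Kirrel3-high cells were 23.8% (19.1 to 29.1) of the control library's cluster 12, or 70 of 294, and 19.8% (15.1 to 25.1), or 52 of 263, in Ptbp1-KO. With each cell thinned to 1000 UMIs and a minimum of 2 Kirrel3 UMIs, the shares were 23.5% (18.7 to 28.7) of 294 and 20.2% (15.5 to 25.6) of 262 cells in 1 random draw and an expected 23.4% and 18.9% over all draws, as 1 Ptbp1-KO cell was shallower. The intervals of the libraries overlapped on either reading. Depth did not separate the populations, with median UMIs of 3052 and 4411 in Kirrel3-high and 2856.5 and 4024 in Kirrel3-low cells of Ptbp1-Ctrl and Ptbp1-KO. Rods, which should lack Kirrel3, had 14.1 and 22.5 CPM of it, against 8810 and 7678 CPM in Kirrel3-high and 25.4 and 22.0 CPM in Kirrel3-low cells.

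The same separation was present in cluster 20, where 29 of 309 cells had at least 5 Kirrel3 UMIs, 86 had at least 3 Sox6 UMIs and 0 had both. A floor of 3 cells there is a share of 0.971%. In cluster 18, which had OFF genes, 115 of 374 cells had the first, 137 the second and 64 both. Cluster 13 had 1 and 3 cells past the limits and 0 past both.

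Kirrel3-low cells carried the BC5A genes. Sox6 was at 1718.5 CPM (1620.5 to 1821) in Ptbp1-Ctrl and 1786 CPM (1700.2 to 1875) in Ptbp1-KO Kirrel3-low cells, and at 59.1 and 20.4 CPM in Kirrel3-high cells. Cdh9 was at 1260 and 1092 CPM against 620 and 966 CPM, and Htr3a had 17 and 19 UMIs in Kirrel3-low against 0 and 3 UMIs in Kirrel3-high cells. Kcng4 was at 151 and 172 CPM in Kirrel3-low and 156 and 183 CPM in Kirrel3-high cells, intervals that overlapped. With 4 of 5 genes of the BC5A list detected and Chrm2 near 0, the Kirrel3-low cells are called BC5A-like. Cdh9 and Kcng4 are also on other type 5 lists and were present in Kirrel3-high cells, so the name rests mainly on Sox6.

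Kirrel3-high cells carried Lrrtm1 at 338 CPM (268 to 420) and 375 CPM (302 to 460), against 11.97 and 7.71 CPM in Kirrel3-low cells. A Lrrtm1 UMI was present in 47 of 70 and 38 of 52 Kirrel3-high cells, and in 8 of 224 and 6 of 211 Kirrel3-low cells. Lrrtm1, Kirrel3 and Kcng4 were the BC5D list, but Kirrel3 made the split and Kcng4 did not differ beyond counting error, so Kirrel3-high cells are given no type name.

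The genes that set Kirrel3-high cells apart had varied roles, and the adhesion list had 4 members past 2-fold higher and 4 lower of 15. Over 4565 genes, 130 (2.85%) were past 2-fold higher and 162 (3.55%) past 2-fold lower in Kirrel3-high than in Kirrel3-low cells in both libraries. Nrg3, a neuregulin, was at 4063 and 4744 CPM against 124 and 95.8 CPM, and Adarb2, of the RNA-editing ADAR family, at 1734 and 2678 CPM against 24.0 and 44.0 CPM. Pcdh7, a protocadherin, was at 5607 and 5123 CPM against 344 and 382 CPM. Irx3, an Iroquois homeodomain factor, was at 118 CPM (78.5 to 171) and 147 CPM (103 to 203) and had no UMI in Kirrel3-low cells, so that it was at least 26.3-fold and 44.4-fold higher against a floor of 3 counts per library.

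The genes lower in Kirrel3-high cells included a receptor, a channel and a sulfotransferase. Drd2, the D2 dopamine receptor, was at 169 and 165 CPM in Kirrel3-low cells and had no UMI in Kirrel3-high cells, which put it at least 13.4-fold and 13.5-fold lower there. Hs3st4, which modifies heparan sulfate, was at 1865 and 1784 CPM in Kirrel3-low and 21.1 and 8.15 CPM in Kirrel3-high cells. Kcnma1, the BK potassium channel, was at 2308 and 2272 CPM against 240.5 and 212 CPM. Il1rapl2, a synaptic relative of the interleukin receptors, was at 2798 and 2567 CPM against 67.5 and 4.08 CPM. Without the 1 Ptbp1-Ctrl cell of the Kirrel3-high population with at least 3 Sox6 UMIs, Il1rapl2 had no UMI there in Ptbp1-Ctrl. Hs3st4 and Sox6 were then at 4.39 CPM each.

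**Figure D4:**
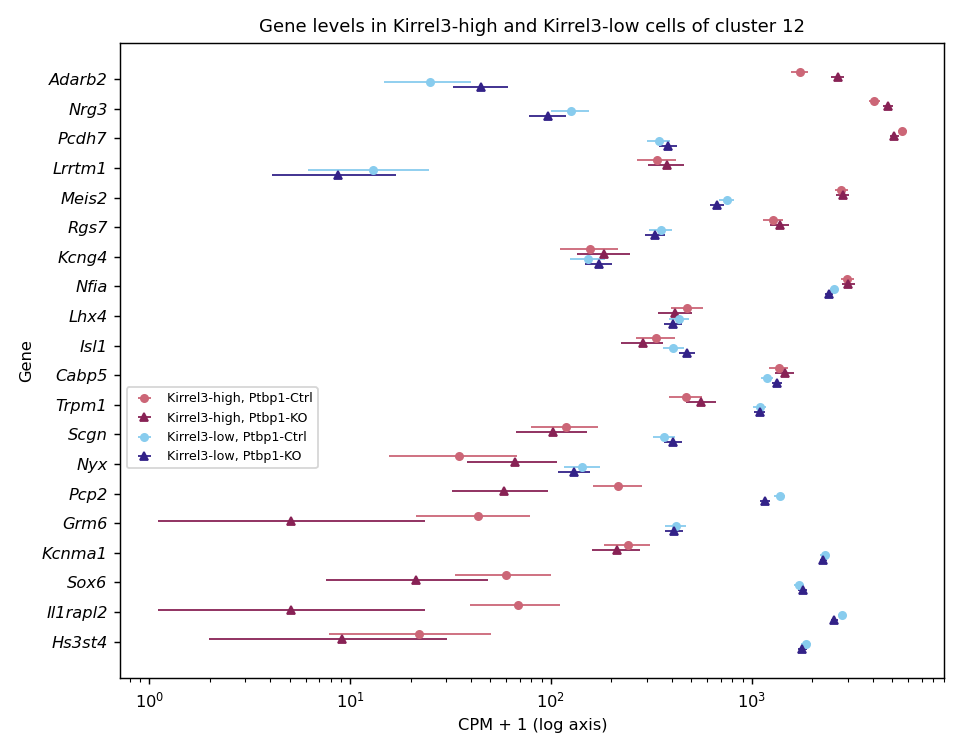
Levels of genes in Kirrel3-high and Kirrel3-low cells of cluster 12 in each library, as CPM + 1 on a log axis, with bars for exact 95% counting intervals. Lrrtm1, Nrg3 and Adarb2 lie higher in Kirrel3-high cells of both libraries, and Sox6, Grm6 and Hs3st4 lie higher in Kirrel3-low cells.

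The ON cascade also differed between the populations. Grm6 was at 418 CPM (370 to 470) and 410 CPM (369 to 453) in Kirrel3-low cells and at 42.2 CPM (20.2 to 77.6) and 4.08 CPM (0.103 to 22.7) in Kirrel3-high cells. Cells with a Grm6 UMI were 152 of 224 and 161 of 211 in the Kirrel3-low and 5 of 70 and 1 of 52 in the Kirrel3-high population, while in rods Grm6 was at 7.67 and 7.59 CPM. The Ptbp1-KO value of Kirrel3-high cells was thus within the level of rods. The Ptbp1-Ctrl value was 21.9 CPM (7.13 to 51.2) without the 1 cell with at least 3 Sox6 UMIs, an interval that held the rod level too. Trpm1 was present in both populations, at 1096 and 1091 CPM in Kirrel3-low and 468 and 558 CPM in Kirrel3-high cells, far above the 17.9 and 18.6 CPM of rods. Isl1 was at 406 and 476 CPM in Kirrel3-low and 333 and 285 CPM in Kirrel3-high cells.

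Of the 11 cascade genes that reached the minimum, 4 were past 2-fold lower in Kirrel3-high cells and 1 was higher, with a median log2 ratio of -0.97. Rgs7, which speeds the deactivation of Go, was the higher one, at 1274 and 1378 CPM in Kirrel3-high against 350.3 and 330.4 CPM in Kirrel3-low cells. Pcp2 was at 215 and 57.1 CPM against 1377 and 1164 CPM. Among bipolar transcription factors, Meis2 was at 2789 and 2828 CPM in Kirrel3-high against 748 and 667 CPM in Kirrel3-low cells. Scgn was at 118 and 102 CPM against 365 and 403 CPM.

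Genes that set cluster 12 apart from other BCs were shared by both populations in several cases. Nfia was at 2991 and 3020 CPM in Kirrel3-high and 2563 and 2418 CPM in Kirrel3-low cells, Neurod2 at 131 and 212 against 144 and 182 CPM, and Lhx4 at 477 and 416 against 434 and 405 CPM. Of 8 inhibitory receptor genes that reached the minimum, 1 was past 2-fold higher and 1 past 2-fold lower in Kirrel3-high cells, with a median log2 ratio of 0. They were Gabrr3 at 118 and 110 CPM in Kirrel3-high and 5.99 and 9.91 CPM in Kirrel3-low cells, and Gabrr2 at 245 and 240.5 CPM against 918 and 755 CPM, both GABA-C subunits. The cells with over 1% rod marker UMIs were 10 and 13 of the Kirrel3-high and 36 and 37 of the Kirrel3-low cells of the libraries.

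Ptbp1 (chr10:79854427-79864771, GRCm38, plus strand) was detected in the Ptbp1-Ctrl cells of cluster 12 only. It had 18 UMIs in 18 of 294 Ptbp1-Ctrl cells, 19.9 CPM (11.8 to 31.4). In 263 Ptbp1-KO cells it had 0 UMIs, with an exact upper limit of 3.20 CPM. Against a floor of 3 counts, or 2.60 CPM, it was at least 7.65-fold lower in Ptbp1-KO. In Ptbp1-Ctrl rods it was at 19.6 CPM, so the cluster 12 level did not stand above that of rods. Of the other BC clusters' Ptbp1 UMIs, 186 were from the control library and 1 from the Ptbp1-KO library. The 3′ counts of this gene lie outside the deleted promoter and first exon, and their loss reads out the transcript and not the deleted sequence itself.

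Ptbp2, the neuronal paralogue, was at 236 CPM (206 to 270) in Ptbp1-Ctrl and 192 CPM (168 to 220) in Ptbp1-KO cells of cluster 12, a log2 ratio of -0.30 (-0.57 to -0.02). In the other BCs it was at 221 CPM in both libraries. By population the ratio was -0.72 (-1.32 to -0.15) in Kirrel3-high and -0.15 (-0.47 to 0.17) in Kirrel3-low cells. Of the 15 splicing regulators listed, 10 had at least 20 UMIs, and their median log2 ratio was -0.03, beside 0.01 over 9658 genes with at least 20 UMIs. Celf4, an ELAV-like RNA-binding protein, was at 140 and 190 CPM (0.44, 0.11 to 0.76) and Srrm4, which promotes neuronal microexons, at 471 and 407 CPM (-0.21, -0.40 to -0.02).

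Few genes were far apart between genotypes in cluster 12. Among 4124 genes with a mean of at least 50 CPM and at least 50 UMIs, 9 (0.218%) were past 2-fold higher and 12 (0.291%) past 2-fold lower in the Ptbp1-KO cells, 21 (0.509%) in all. In 1 random draw, the clusters with enough UMIs in both libraries were drawn down to 723421 UMIs per library. This left out clusters 10, 18, 20 and 21. Of the genes compared, 0.605% were past 2-fold in cluster 12, beside 0.764% in cluster 5, 0.334% in cluster 9, 0.583% in cluster 11, 0.807% in cluster 13 and 0.860% in cluster 19. The share in cluster 12 lay inside the range of the other clusters drawn.

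The most distant genes fell into those with a like difference in the other BCs and those without. Of the 20 genes named by their ratio, 11 had intervals in cluster 12 and in the other BCs that did not overlap. The 20 were picked by their ratio in cluster 12, which by itself favours a more distant ratio there. The like share over all genes was not counted, so 11 of 20 is not read as a result. These comparisons share libraries, and the differences between the ratios were not tested.

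**Figure D5:**
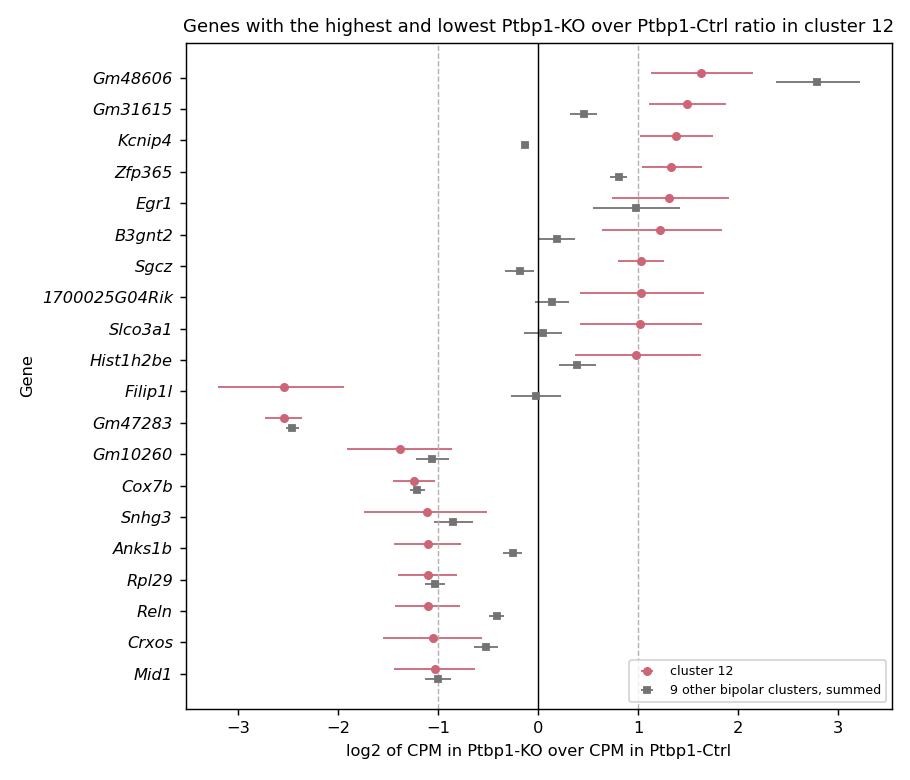
The log2 ratio of Ptbp1-KO over Ptbp1-Ctrl CPM for the 10 highest and 10 lowest genes in cluster 12 (circles) and in the pooled other BC clusters (squares), with exact 95% counting intervals and dashed lines at 2-fold. Filip1l lies at -2.55 in cluster 12 and at -0.02 in the other BCs, and Gm47283 at -2.54 and -2.46.

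Filip1l (chr16:57353093-57573126, plus strand), which encodes a filamin-interacting protein, was the lowest gene in Ptbp1-KO. It was at 137 CPM (114 to 163) in Ptbp1-Ctrl and 23.4 CPM (15.4 to 34.1) in Ptbp1-KO cells of cluster 12, a log2 ratio of -2.55 (-3.21 to -1.94), and at 30.6 and 30.2 CPM in the other BCs. A Filip1l UMI was present in 79 of 294 and 24 of 263 cells, or an expected 11.9% and 2.16% with cells thinned to 1000 UMIs, over all draws. The difference lay in the BC5A-like Kirrel3-low cells, at 171 and 22.0 CPM (-2.95, -3.72 to -2.26), while Kirrel3-high cells had 42.2 and 28.5 CPM (-0.57, -2.19 to 0.98). The Ptbp1-KO cells of cluster 12 were thus near the level of the other BCs, and the Ptbp1-Ctrl cells above it.

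Zfp365 (chr10:67886103-67912662, minus strand), a zinc finger gene on the chromosome of Ptbp1, was at 138 CPM (115 to 165) in Ptbp1-Ctrl and 348 CPM (314 to 383) in Ptbp1-KO cells, a log2 ratio of 1.33 (1.04 to 1.63). Cells with a UMI were 98 of 294 and 196 of 263, or an expected 12.7% and 29.1% after thinning. The ratio was 1.64 in Kirrel3-low cells, at 115 and 360 CPM, and 0.57 in Kirrel3-high cells, at 203 and 302 CPM. Zfp365 was also higher in Ptbp1-KO in 9 of 9 other BC clusters, with a pooled ratio of 0.80 (0.71 to 0.89).

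Sgcz, for a sarcoglycan of the membrane, and Reln, for the secreted glycoprotein reelin, were carried by Kirrel3-low cells and lay in opposite directions. Sgcz was at 239 and 486 CPM in cluster 12 (1.03, 0.80 to 1.26) and at 319 and 617 CPM in Kirrel3-low cells, while the other BCs were at 90.8 and 79.9 CPM (-0.18, -0.33 to -0.04). Reln was at 236 and 110 CPM in cluster 12 (-1.10, -1.43 to -0.78) and at 320 and 134 CPM in Kirrel3-low cells, and the other BCs were at 373 and 279.7 CPM (-0.41). In Kirrel3-high cells Reln had 0 UMIs in the control and 5 UMIs in the Ptbp1-KO library. Anks1b (chr10:89873509-90973300, plus strand), a synaptic scaffold gene also on the chromosome of Ptbp1, was at 224 and 104 CPM (-1.11, -1.45 to -0.78), against -0.26 in the other BCs.

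Kcnip4, a subunit of A-type potassium channels, was at 91.7 and 238 CPM in cluster 12 (1.37, 1.01 to 1.75) but its UMIs lay in 29 and 51 cells, and 3 cells of each library held 35 of the 83 Ptbp1-Ctrl and 114 of the 274 Ptbp1-KO UMIs. In the other BCs it was at 1548 and 1415 CPM. B3gnt2, a glycosyltransferase gene, was at 36.5 and 85.0 CPM (1.22, 0.64 to 1.84), against 0.18 in the other BCs. Slco3a1, an organic anion transporter gene, and 1700025G04Rik had ratios of 1.01 and 1.03, against 0.04 and 0.14.

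Other genes named by the rule differed in the same direction in the other BCs, though not all at a like size. Gm48606, a long noncoding RNA (chr12:16207733-16286119, plus strand), was at 46.4 and 143 CPM in cluster 12 (1.62, 1.13 to 2.15), and 2.79 higher on the log2 scale in the other BCs. Gm47283 was at 1497 and 257 CPM (-2.54), against -2.46 in the other BCs, and Cox7b, a subunit of cytochrome c oxidase, at 596 and 251 CPM (-1.24), against -1.21. Rpl29, Gm10260, Mid1 and Snhg3 had ratios between -1.38 and -1.04 in cluster 12 and between -1.06 and -0.85 in the other BCs. Gm31615 (1.49, 1.11 to 1.88), Hist1h2be (0.98) and Crxos (-1.06) had ratios of 0.45, 0.39 and -0.53 in the other BCs, the same direction at smaller size. Gm47283 is annotated on chromosome Y. The study's methods name female mice, but the Y-linked genes Ddx3y (104 and 96.2 CPM), Uty (218 and 237 CPM) and Eif2s3y (171 and 206 CPM) were present in the cluster 12 cells of both libraries, with ratios of -0.11 (-0.52 to 0.30), 0.12 (-0.15 to 0.39) and 0.27 (-0.03 to 0.57). The counts of Gm47283, Gm10260, Rpl29 and Mid1 are uncertain, because similar copies of these genes exist in the genome.

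Gene groups of bipolar function had medians near that of all genes. The share of all genes with an interval off 0 was not counted, so counts of such intervals here and below only describe the lists. The mGluR6 cascade had a median log2 ratio of -0.01 over 12 genes, of which Gng13, its γ subunit, had an interval above 0 (1611 and 2172 CPM, 0.43, 0.34 to 0.53) and Pcp2 an interval below it (1073 and 928 CPM, -0.21). Gng13 was likewise 0.45 higher in the other BCs. Grm6 and Trpm1 had ratios of 0.02 (-0.21 to 0.24) and 0.07 (-0.06 to 0.20). The ON bipolar list had a median of 0.02 over 8 genes, with no interval off 0.

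The bipolar transcription factors had a median of 0.14 over 15 genes, with 3 intervals above and 3 below 0. Nfib, of the nuclear factor I family, was at 89.5 and 143 CPM (0.68, 0.28 to 1.08), against -0.18 in the other BCs. Otx2 was at 481 and 557 CPM (0.21, 0.03 to 0.39), against 0.24.

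Synaptic genes were shifted by little. The ribbon synapse list had a median of 0.10 over 16 genes, with 4 intervals above 0 and 0 below. The 4 were Cacna1d, an L-type calcium channel (281 and 391 CPM, 0.48), the complexins Cplx3 (0.26) and Cplx4 (0.25), which control vesicle fusion, and the priming factor Unc13b (0.20). The other BCs had 0.29, 0.21, 0.14 and 0.27 for these genes. Without the share over all genes, 4 of 16 is not read as a result about the list. Gria1, an AMPA receptor subunit, was at 112 and 185 CPM (0.73, 0.38 to 1.08), against 0.19. Inhibitory receptors had a median of -0.06 over 10 genes, ion channels 0.16 over 15 and adhesion genes -0.02 over 18.

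Metallothioneins, metal-binding proteins that respond to stress, had positive log2 ratios in cluster 12, of which 2 of 3 had intervals above 0, with Mt3 at 176 and 252 CPM (0.52, 0.24 to 0.81), Mt1 at 533 and 627 CPM (0.24, 0.07 to 0.40) and Mt2 at 89.5 and 112 CPM (0.32, -0.09 to 0.74). In the other BCs the ratios were 0.77 for Mt3, 0.39 for Mt1 and 0.47 for Mt2. Of 12 genes that respond to dissociation, 7 had at least 20 UMIs and all 7 were higher in Ptbp1-KO. The share of all genes higher in Ptbp1-KO was not counted. Only the interval of Egr1, an immediate early transcription factor, lay off 0, at 37.6 and 92.8 CPM (1.30, 0.74 to 1.91). In the other BCs Egr1 had a ratio of 0.98 (0.55 to 1.42). Handling of the 2 retinas and genotype cannot be told apart here. Of the 7 rod genes, 3 had intervals below 0 (Sag, Nrl and Nr2e3) and 1 an interval above 0, Gnat1 (0.24, 0.10 to 0.38). The share of all genes with an interval off 0 was not counted, so these counts are not read as results about the lists.

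Kirrel3 had a Ptbp1-KO over Ptbp1-Ctrl log2 ratio of -0.49 (-0.58 to -0.40) over the whole cluster and of -0.20 within Kirrel3-high cells, which were 23.8% and 19.8% of the cells. Sox6 had a ratio of 0.14 (0.03 to 0.25) over the cluster and of 0.06 within Kirrel3-low cells. Cdh9 had a ratio of -0.04 (-0.16 to 0.09) over the cluster, 0.64 within Kirrel3-high and -0.21 within Kirrel3-low cells. Kcng4 had ratios of 0.19 over the cluster, 0.23 and 0.18 within the populations, and Lrrtm1 of -0.18 (-0.61 to 0.25).

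Within Kirrel3-high cells, some genes lay apart between genotypes; those given here were named after their values were seen. Adarb2 was at 1734 and 2678 CPM (0.63), Kcnd2 at 987 and 1651 CPM (0.74, 0.51 to 0.98) and Gria4, an AMPA receptor subunit, at 312 and 159 CPM (-0.97). Without the 1 Ptbp1-Ctrl cell with at least 3 Sox6 UMIs, the ratios were 0.58 (0.40 to 0.76), 0.69 (0.45 to 0.93) and -0.97 (-1.57 to -0.39). Of the other genes recomputed without that cell, Sphkap, an anchoring protein of protein kinase A (-3.11, -6.27 to -1.02), Ptprt (-2.69, -4.68 to -1.15) and Pcp2 (-1.79, -2.77 to -0.90) lay lower in Ptbp1-KO, and Kirrel3 (-0.22), Pcdh7 (-0.15) and Nrg3 (0.19) had small ratios with intervals off 0. In Kirrel3-low cells Kcnd2 was at 328 and 325 CPM (-0.01). These ratios rest on 70 and 52 cells of 1 mouse each.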

How the data were processed

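The deposited files were a matrix of UMI counts per gene and cell for both libraries and a per-cell annotation with library, cell type and cluster, whose clusters and BC label were used as given. Per the study's methods and processing notes the authors made the counts with Cell Ranger 7.0.1 on the mm10 mouse genome and filtered and clustered the cells with Seurat 4; how intronic reads were counted is not given in the sources used here. The methods give no doublet step, and none was added. The 2 further per-cell columns, a project name and a clustering, were not used. The deposited counts of the cells were summed per library and expressed as CPM with Python 3.11.15, numpy 2.4.6, scipy 1.17.1 and pandas 2.3.3. Levels have exact Poisson intervals, ratios between libraries exact conditional binomial intervals and shares exact Clopper-Pearson intervals, all at 95%. With 1 library per genotype no p-value was computed. The 25778 genes were compared at a mean of at least 50 CPM, and between genotypes also at least 50 UMIs. Named genes were Ptbp1, Ptbp2, members of the lists, the 15 highest and 10 lowest genes against the other BCs and the 10 highest and 10 lowest genes between genotypes. Genes of the Kirrel3 split were the 12 most different per direction with at least 100 CPM, besides list members and the genes said to be named after their values were seen. Results for some list members are not reported here. The members and lists were chosen with earlier results of these data known. Gene positions are from GENCODE M21 on GRCm38. The ratio, interval and counting steps were tested on simulated data. Alternatives were another scaling (TMM, edgeR 4.0.16, R 4.3.3), equal weight per cell, thinning to 1000 UMIs, subtraction of a background profile, other minimums, and leaving out cells.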

Additional observations from a re-analysis of the deposited data

Results flagged for a closer look

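For 10 genes reported here the ratio of Ptbp1-KO over Ptbp1-Ctrl lay on opposite sides of 0 in cluster 12 and in the other BC clusters, with both counting intervals off 0. The difference between the ratios was not tested, and with 1 library per genotype each sample is the only one of its kind. On the log2 scale the ratios were 1.37 in cluster 12 and -0.13 in the other BCs for Kcnip4, 1.03 and -0.18 for Sgcz, 0.68 and -0.18 for Nfib, and 0.14 and -0.13 for Sox6. They were -0.49 and 0.13 for Kirrel3, -0.21 and 0.092 for Srrm4, and -0.16 and 0.19 for St18, a zinc finger transcription factor. For Grik1 the ratios were 1.41 and -0.26, and 1 cell held 32 of its 61 Ptbp1-KO UMIs in cluster 12. Pcp2 had -0.21 and 0.12 and Prkca -0.46 and 0.12, and rods had 834 and 903 CPM of Prkca, more than the 179 and 130 CPM of cluster 12.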

How the results depend on the processing

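No reversal was found among the results for which it was defined. These were gene ratios and list medians between genotypes with an interval off 0, and named ratios of cluster 12 over the other BCs. Gene counts and shares could only stay alike or move. Which direction had more genes past 2-fold changed with the setting. The counts of genes past 2-fold between genotypes, 9 higher and 12 lower in Ptbp1-KO, depended on the limits and on depth. They were 41 higher and 34 lower of 6786 genes with a minimum of 20 CPM, 2 and 3 of 902 genes with a minimum of 200 CPM, and 957 and 895 of 14245 genes with no filter. They were 15 and 20 with cells thinned to 1000 UMIs in 1 random draw and 27 and 39 with a background profile subtracted, which removed 27.1% and 29.8% of the UMIs of cluster 12. In alternatives chosen after seeing the data, the higher count was 20 without cells of over 1% rod marker UMIs and 17 in Kirrel3-low cells only. TMM scaling gave 9 and 11 genes and equal weight per cell 11 and 13. The median of the calcium-binding list was -0.62 after thinning, and that of the BC5B and BC5C list -0.21 in Kirrel3-low cells only. The share of cluster 12 was 12.1% and 14.1% of BCs outside cluster 5 and 1.79% and 1.81% of all cells. The genes past 2-fold against the other BCs were between 148 and 286 higher and between 241 and 400 lower, beside 200 and 300. The log2 ratio of Filip1l ranged from -4.06 with background subtracted to -2.07 after thinning and that of Zfp365 from 1.19 to 1.81, while Kcnip4 had no value with background subtracted, as none was left in a library. After thinning, Gm31615 was at 0.65, Gm48606 at 0.95 and Egr1 at 0.63. Expected shares over all draws were added after seeing the data; 1 random draw gave 10.9% and 32.4% of cells for Zfp365 and 9.86% and 2.67% for Filip1l. The cause of these changes was not tested. No paired analysis was possible because there was 1 library per genotype, and no replicate could be left out. Depth limits genes under about 50 CPM, which had few UMIs per library.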
